A study of Arabidopsis thaliana with 10 samples.

Results

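Seedlings of the dal-2 mutant of Arabidopsis thaliana were compared directly, gene by gene, with seedlings in which the F-box line DIF-OX2 had been induced. The comparison uses 4 of the 10 RNA sequencing libraries of the study, 2 per group, chosen by the line and treatment in their labels, and describes all 20681 genes that had enough reads of 33602 in the table. The dal-2 seedlings carried the dal-2 mutation in the Col-0 background, were 20 days old (replicate 1) or 21 days old (replicate 2) and had received 0.1% ethanol as solvent without dexamethasone (Dex). The DIF-OX2 seedlings, a transgenic line in the same background, were 12 days old and had grown on 10 µM Dex in 0.1% ethanol. Wild-type Col-0 seedlings of 12 days without Dex and with 10 µM Dex, 2 libraries each, were the own controls of dal-2 and of induced DIF-OX2, and DIF-OX2 seedlings of 12 days without Dex completed the series. All groups without Dex had received the same 0.1% ethanol. All seedlings were whole plants with 4 open true leaves, grown on sucrose medium in long days. Line, age and Dex all differ between dal-2 and DIF-OX2 on Dex, so their effects cannot be told apart in the direct comparison. The labels do not say which promoter drives DIF, how many clones or alleles stand behind each name, or whether replicates were separate cultures, so p-values measure only how far these libraries lay apart, and that distance may be technical.

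Plastids depend on many nuclear genes, and the state of the plastid is signalled back to the nucleus, where it changes the transcription of photosynthesis genes (retrograde signalling). DAL (DIFFERENTIATION AND GREENING-LIKE, AT2G33430), also known as MORF2, is imported into plastids, where MORF proteins act in RNA editing together with pentatricopeptide repeat proteins, and dal mutants fail to form normal chloroplasts. By the title of the study, a ubiquitin ligase complex that holds DIF has DAL degraded. The direct comparison therefore sets the loss of DAL by mutation against induction of the factor that marks it for degradation, and asks where the transcriptomes of the lines differ.

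Reads assigned to genes totalled 11316862 and 14894058 in the dal-2 libraries and 8805568 and 14766519 in DIF-OX2 on Dex. Levels are given per library in CPM, read counts scaled to library size and composition (TMM), for replicates 1 and 2 in that order. CPM is not divided by gene length and is compared here only within a gene. Adjusted p-values come from edgeR's quasi-likelihood test over all 10 libraries with Benjamini-Hochberg adjustment over all tested genes, and a gene is said to have risen or fallen in dal-2 relative to DIF-OX2 on Dex where that value was below 0.05. This test estimates 1 spread per gene over all groups, but replicates of dal-2 lay further apart than those of other groups. The standard deviation of the log2 difference between replicates was 0.679 in dal-2 and 0.333 in DIF-OX2 on Dex. More than 4-fold differences between replicates were found for 403 genes in dal-2 and 9 in DIF-OX2 on Dex. Sample quality weights estimated by limma were 0.315 and 0.302 for the dal-2 libraries, 1.1 and 1.05 for DIF-OX2 on Dex and 1.26 to 1.60 for the other 6.

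Of the 20681 genes, 4455 (21.5%) passed the test, 1802 (8.71%) higher in dal-2 and 2653 (12.8%) lower, and 2588 of them differed at least 2-fold. The number of calls depends on how the spread is estimated. With sample quality weights 1798 genes (8.69%) passed, 682 higher (3.3%) and 1116 lower (5.4%). With only the 4 libraries of the comparison in the fit 793 of 20438 genes (3.88%) passed, 230 higher (1.13%) and 563 lower (2.75%). Both dal-2 libraries lay above both libraries of DIF-OX2 on Dex in 26.7% of all tested genes and below them in 32.2%. All 4455 called genes were among these, so the lack of overlap in a called gene adds no support to its call. Of the 4455 calls 687 were made by all of these fits, and no called gene turned its sign in any alternative setting. The count was 1984 without replicate 1 and 1901 without replicate 2 of DIF-OX2 on Dex, and 1333 genes passed without each of the 4 libraries in turn. The excess of lower calls also depends on the scaling, since upper quartile scaling gave 2426 higher and 2150 lower calls (53% and 47% of calls, against 40.4% and 59.6% with TMM). For the larger groups of genes below, the text gives how many genes passed in these stricter fits and how many calls were made without each of the 10 libraries in turn, which are called stable calls. Every count of calls below has to be set beside the shares over all genes, 8.71% called higher and 12.8% lower. A count near these shares is no result about the members of its list.

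**Figure D1:**
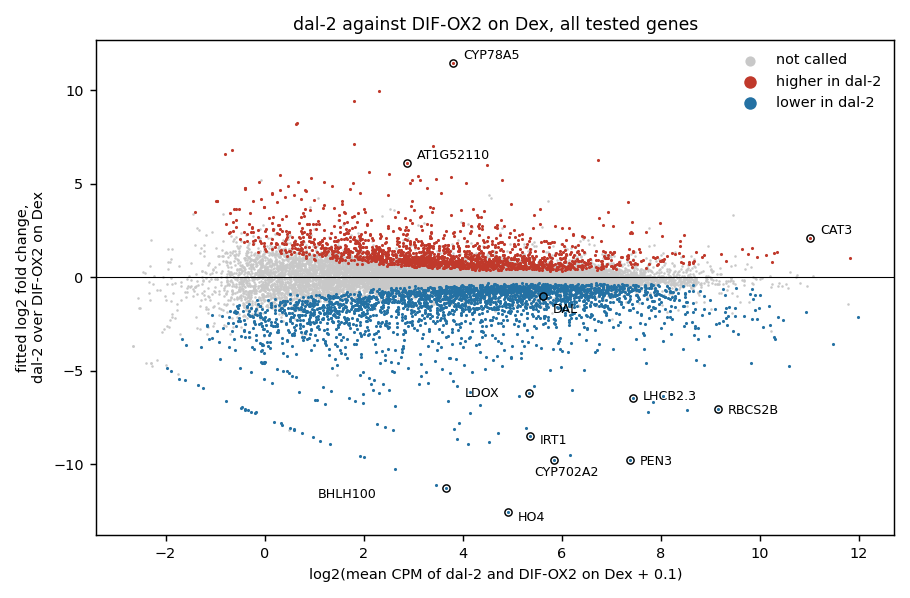
Fitted log2 fold change of dal-2 over DIF-OX2 on Dex (vertical axis) against the log2 mean level of both groups in CPM plus 0.1 (horizontal axis) for the 20681 tested genes, with 1802 genes called higher in dal-2 in red and 2653 called lower in blue. Circled genes are named in the text; the falls of HO4, PEN3 and CYP702A2 lie far below the bulk of the genes, and values of genes with no read in a group, such as HO4 and CYP78A5, are fitted values and no measure of fold.

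The tissue label was checked against markers. Chlorophyll-binding antenna genes, which mark green leaf tissue, were read in all 4 libraries, with sums over 20 genes of 1761 and 5747 CPM in dal-2 and 35370 and 24430 CPM in DIF-OX2 on Dex. Root markers were also present in all of them. The 5 root hair genes summed to 30.84 and 22.04 CPM in dal-2 and to 68.5 and 91.6 CPM in DIF-OX2 on Dex, and the 5 endodermis genes to 49.1 and 37.7 CPM in dal-2 and to 65.9 and 87.6 CPM in DIF-OX2 on Dex. The 4 root tip genes summed to 41.9 and 55.8 CPM in dal-2 and to 61.2 and 52.5 CPM in DIF-OX2 on Dex, which overlap. In whole seedlings, fewer cells of a type and less RNA per cell cannot be told apart.

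DAL itself stood at 29.6 and 35.7 CPM in dal-2, at 72.6 and 59.3 CPM in DIF-OX2 on Dex, at 92.6 and 95.6 CPM in uninduced DIF-OX2, at 97.9 and 107 CPM in Col-0 and at 99.6 and 115 CPM in Col-0 on Dex. Both dal-2 libraries were lower than both libraries of DIF-OX2 on Dex, which were lower than all wild-type libraries. The DAL transcript fell in dal-2 relative to DIF-OX2 on Dex (log2 fold change −1.01, SE 0.15, adjusted p = 0.00372), also with quality weights (adjusted p = 0.0203) but not with the 4 libraries alone (adjusted p = 0.0627). Reads on DAL remained in dal-2, and where the dal-2 mutation lies in the gene is not given in the labels. The labels do not name the DIF locus, and its induction by Dex was not analysed here. The other 8 members of the MORF family, which serve RNA editing in plastids or mitochondria, did not pass the test, with log2 fold changes between −0.38 for the plastid member MORF9 and 0.69 for MORF4. Without replicate 2 of dal-2, 3 genes of the family were called higher and 2 lower.

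Nuclear genes for the photosynthetic apparatus formed the most uniform difference. All 20 tested genes of the light harvesting antenna, whose proteins bind chlorophyll around the photosystems, fell in dal-2, with a median log2 fold change of −2.78, against −0.0226 over all tested genes. All 20 also passed with quality weights and 4 with the 4 libraries alone, and 12 were stable. LHCB1.3 (AT1G29930; CAB1), a main antenna protein of photosystem II, was read at 362 and 516 CPM in dal-2 and at 6399 and 4208 CPM in DIF-OX2 on Dex. It stood far below DIF-OX2 on Dex in both dal-2 libraries (log2 fold change −3.60, SE 0.35, adjusted p = 6.07e-04). In Col-0 it reached 12570 and 14150 CPM. The deepest falls of the antenna belonged to LHCB2.3 and LHCB1.4. LHCB2.3 (AT3G27690) had 1.09 and 6.44 CPM in dal-2, against 444 and 239 CPM in DIF-OX2 on Dex (log2 fold change −6.47, adjusted p = 0.00109). LHCB1.4 (AT2G34430) had 3.96 and 8.66 CPM in dal-2, against 635 and 418 CPM in DIF-OX2 on Dex (log2 fold change −6.37, adjusted p = 2.03e-04). In these genes replicate 1 of dal-2 was below replicate 2, and no dal-2 library approached DIF-OX2 on Dex. LHCB1.1, LHCB1.2 and LHCB1.3 are near-identical neighbours, and how their reads divide is uncertain. Without replicate 1 of DIF-OX2 on Dex 12 of the 20 genes passed.

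Photosystem subunits and electron carriers gave 26 lower calls among 30 genes and no higher one (median log2 fold change −2.20), 28 passing with quality weights and 11 with the 4 libraries alone. Stable calls numbered 16, and 16 of the 30 passed without replicate 1 of DIF-OX2 on Dex. PSAD1 (AT4G02770), the photosystem I subunit at which ferredoxin docks, had 82.6 and 136 CPM in dal-2, against 796 and 634 CPM in DIF-OX2 on Dex (log2 fold change −2.71, SE 0.27, adjusted p = 7.05e-04). PETE1 (AT1G76100), a plastocyanin that carries electrons to photosystem I, had 3.69 and 12.6 CPM in dal-2, against 128 and 106 CPM in DIF-OX2 on Dex (log2 fold change −3.83, adjusted p = 0.00159). PSAH2 and PSBQ2, subunits of photosystems I and II, had log2 fold changes of −3.44 and −3.05 (adjusted p = 5.33e-04 and 0.00158). In 29 of the 30 genes both dal-2 libraries lay below both libraries of DIF-OX2 on Dex, a pattern that 32.2% of all tested genes showed. The exception was FNR2, a reductase that takes electrons from ferredoxin, with 177 and 74.2 CPM in dal-2, against 254 and 167 CPM in DIF-OX2 on Dex.

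In the Calvin-Benson cycle, which fixes carbon dioxide in the chloroplast stroma, 13 of 19 genes fell and none rose (median log2 fold change −1.68), and 16 passed with quality weights and 2 with the 4 libraries alone. Rubisco small subunits differed widely among themselves. RBCS2B (AT5G38420) was read at 3.55 and 13.5 CPM in dal-2 and at 1365 and 904 CPM in DIF-OX2 on Dex (log2 fold change −7.04, SE 0.63, adjusted p = 4.03e-04). It was nearly silent in dal-2, whereas RBCS1A (AT1G67090) had 823 and 2227 CPM in dal-2, against 7789 and 5443 CPM in DIF-OX2 on Dex (log2 fold change −2.12, adjusted p = 0.0159). These paralogues are similar in sequence, and the split of their reads is uncertain. RBCS1A did not pass without replicate 1 of DIF-OX2 on Dex (adjusted p = 0.077), when 5 of the 19 genes passed, the same number as were stable. In photorespiration, which recycles the product of Rubisco's oxygenation, 2 of 12 genes fell, 1 of them stably, and 4 were lower with quality weights and none with the 4 libraries alone. The genes that fell were SHM1 (AT4G37930), a serine hydroxymethyltransferase (log2 fold change −1.60, adjusted p = 0.0195, but 0.103 without replicate 1 of DIF-OX2 on Dex) and AT1G11860, a T protein of glycine cleavage (log2 fold change −1.73, adjusted p = 0.00459). The 2 of 12 lower calls in photorespiration lie near the 12.8% called lower over all genes. GLDP1 (AT4G33010), the P protein of glycine decarboxylase, had 97.8 and 486 CPM in dal-2, against 1330 and 861 CPM in DIF-OX2 on Dex and did not pass (log2 fold change −1.91, adjusted p = 0.0586). It failed likewise with the 4 libraries alone, DESeq2 size factors, upper quartile scaling, a filter of 5 CPM, a 2-fold minimum and the replicate block. The same held when 1 library of a group other than dal-2 was left out. Some other fits called it lower, with adjusted p = 0.0263 with quality weights, 0.037 with limma-voom, 0.00298 with the DESeq2 Wald test and 0.0372 without the filter on low counts. It was also lower without replicate 1 and without replicate 2 of dal-2 (adjusted p = 0.0102 and 1.00e-04). The dal-2 replicates lay far apart in photorespiration, and without replicate 1 of dal-2 4 of the 12 genes were called lower and 1 higher, without replicate 2 of dal-2 11 lower.

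Chlorophyll and haem are made by the tetrapyrrole pathway in the plastid. Of its 26 tested genes 18 fell and none rose (median log2 fold change −1.03), with 12 passing with quality weights, 1 with the 4 libraries alone and 5 stable. The stable calls included HEMC (AT5G08280), an early enzyme, with 88.3 and 92.8 CPM in dal-2, against 235 and 159.7 CPM in DIF-OX2 on Dex (log2 fold change −1.12, adjusted p = 0.00523). CHLI1 (AT4G18480), a subunit of magnesium chelatase, had 119 and 154 CPM in dal-2, against 429 and 302 CPM in DIF-OX2 on Dex (log2 fold change −1.42, adjusted p = 0.00307). PORC (AT1G03630), a light-dependent protochlorophyllide reductase, had 20.2 and 28 CPM in dal-2, against 143 and 91.4 CPM in DIF-OX2 on Dex (log2 fold change −2.28, adjusted p = 7.61e-04). In these genes, named after their values were seen, both dal-2 libraries were below both libraries of DIF-OX2 on Dex, as in every gene called lower. CHLH (AT5G13630; GUN5), the chelatase subunit that binds the porphyrin, had 126 and 556 CPM in dal-2, against 1956 and 1303 CPM in DIF-OX2 on Dex (log2 fold change −2.26, adjusted p = 0.0289). GUN4 (AT3G59400), which activates the chelatase, had 4.98 and 29.6 CPM in dal-2, against 123 and 72.9 CPM in DIF-OX2 on Dex (log2 fold change −2.48, adjusted p = 0.0288). Neither passed without replicate 1 of DIF-OX2 on Dex (adjusted p = 0.126 and 0.132), without its replicate 2 (adjusted p = 0.0693 and 0.0651) and without either library of Col-0 on Dex (adjusted p between 0.0545 and 0.0546). Of the 26 genes 5 passed without replicate 1 of DIF-OX2 on Dex. Among 8 genes of chlorophyll breakdown 3 fell (1 with quality weights and none with the 4 libraries alone), of which RCCR (AT4G37000), the reductase of red chlorophyll catabolite, was stable (log2 fold change −0.76, adjusted p = 0.00551). SGR1 (NYE1) and PAO (ACD1), which start and open the degradation of chlorophyll, had log2 fold changes of −0.73 and −0.72. Neither passed without replicate 1 of DIF-OX2 on Dex (adjusted p = 0.104 and 0.0784) and SGR1 also not without its replicate 2 (adjusted p = 0.0544).

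GLK1 and GLK2 (AT5G44190), the paired transcription factors that activate antenna and chlorophyll genes, both fell. GLK1 (GPRI1 in the annotation) was read at 5.66 and 7.66 CPM in dal-2 and at 92.5 and 54.5 CPM in DIF-OX2 on Dex, with 199 and 114 CPM in Col-0 (log2 fold change −3.45, SE 0.42, adjusted p = 0.00149). GLK2 had 8.05 and 24.8 CPM in dal-2, against 75.7 and 47.8 CPM in DIF-OX2 on Dex (log2 fold change −1.90, adjusted p = 0.0251, but 0.128 without replicate 1 and 0.0531 without replicate 2 of DIF-OX2 on Dex). GNC, a GATA factor that also promotes greening, was higher at 17.6 and 24.8 CPM in dal-2, against 11.5 and 9.47 CPM in DIF-OX2 on Dex (log2 fold change 1.02, adjusted p = 0.0222), a call that ended without replicate 1 or replicate 2 of DIF-OX2 on Dex (adjusted p = 0.0667 and 0.139). The other 6 of 9 greening and plastid signalling regulators did not pass, among them HY5, HYH and GUN1, the plastid protein at the centre of retrograde signalling, which had 232 and 220.3 CPM in dal-2, against 307 and 235 CPM in DIF-OX2 on Dex (log2 fold change −0.26, adjusted p = 0.308). Of the 9 genes 2 were lower with quality weights and 1 with the 4 libraries alone, and 1 call was stable. Without replicate 2 of dal-2, 4 of the 9 were called lower and 1 higher.

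Genes for plastid transcription gave calls in both directions, and the stable ones were rises relative to DIF-OX2 on Dex. Plastid genes are read by a bacterial-type RNA polymerase with associated proteins and nuclear-encoded sigma factors, and by phage-type polymerases. Of 13 genes for proteins associated with the bacterial-type polymerase 4 rose and none fell, and the median log2 fold change was 0.34. Over all genes 8.71% rose. With quality weights 2 of the 13 passed and with the 4 libraries alone none. Against their own wild type 3 of the 13 fell in dal-2 (median log2 fold change −0.165) and 9 in DIF-OX2 on Dex (median −0.723). None rose in either line. FLN1 (AT3G54090), a fructokinase-like member of that complex and its only stable call, had 62.4 and 52.4 CPM in dal-2, against 30.6 and 26 CPM in DIF-OX2 on Dex (log2 fold change 1.02, SE 0.14, adjusted p = 0.00236). The count was 2 without replicate 1 of dal-2 or either library of Col-0 on Dex. It was 1 without replicate 2 of DIF-OX2 on Dex. The phage-type plastid polymerase RPOTP (SCA3) had 85.6 and 95.7 CPM in dal-2, against 46.2 and 39.3 CPM in DIF-OX2 on Dex (log2 fold change 1.09, SE 0.15, adjusted p = 0.00214). RPOTP passed in the stricter fits too (adjusted p = 0.0145 with weights and 0.0425 with the 4 libraries alone). None of 6 sigma factors gave a stable call. Of 9 sigma factors and phage-type polymerases 1 rose and 6 fell in dal-2 against Col-0. In DIF-OX2 on Dex against Col-0 on Dex none rose and 4 fell. Among 20 tested genes for plastid import, chaperones and proteases 5 fell and 1 rose, while over all genes 12.8% fell and 8.71% rose. With quality weights 2 fell and 1 rose, and with the 4 libraries alone none passed. Fewer than in the fit of all libraries were called lower when 1 library of any group other than dal-2 was left out, and more without replicate 2 of dal-2. CLPD (AT5G51070; ERD1), a chaperone of the Clp protease, was the stable call, with 97.2 and 117 CPM in dal-2, against 183 and 185 CPM in DIF-OX2 on Dex (log2 fold change −0.78, adjusted p = 0.00613).

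**Figure D2:**
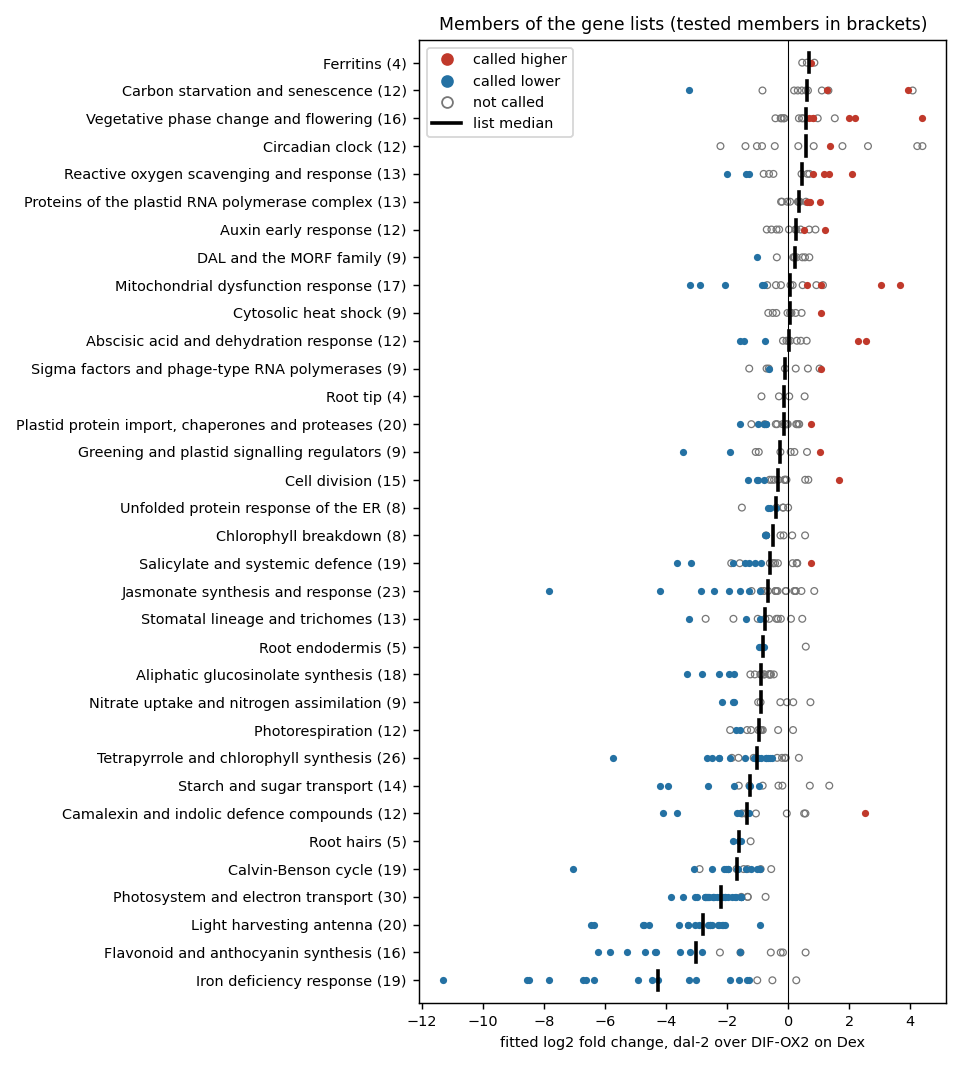
Fitted log2 fold change of dal-2 over DIF-OX2 on Dex for each tested member of the gene lists with at least 4 tested members, ordered by list median (black bar), with members called higher in red, called lower in blue and not called as open circles. All 20 antenna genes and 26 of 30 photosystem genes lie at called negative values, and the lists with the lowest medians are the iron deficiency response at −4.28 and flavonoid synthesis at −3.03.

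The lowest median of any list belonged to iron. Plants short of iron induce a ferric reductase (FRO2) and an iron transporter (IRT1) in the root, under the bHLH factor FIT and the factors of subgroup Ib (BHLH38, BHLH39, BHLH100, BHLH101). Of 19 tested iron deficiency genes 16 fell and none rose, and the median log2 fold change was −4.28, 13 passing with the 4 libraries alone, 3 with quality weights, and 11 stable. IRT1 (AT4G19690) was read at 0.341 and 0.111 CPM in dal-2 and at 52.3 and 112 CPM in DIF-OX2 on Dex (log2 fold change −8.51, SE 0.59, adjusted p = 1.40e-04). FRO2 was read at 0.409 and 1.22 CPM in dal-2 and at 48.9 and 90.4 CPM in DIF-OX2 on Dex (log2 fold change −6.35, adjusted p = 2.20e-04). Both were nearly off in both dal-2 libraries, although IRT1 reached 184 and 120.0 CPM in Col-0 and 90.2 and 79.1 CPM in Col-0 on Dex. BHLH100 (AT2G41240) had no read in either dal-2 library and 35.4 and 15.1 CPM in DIF-OX2 on Dex, at least 244-fold lower with a floor of 3 counts over the group. BHLH38 (AT3G56970) had 0.0682 and 0.167 CPM in dal-2, against 36.6 and 23.6 CPM in DIF-OX2 on Dex (log2 fold change −7.83, adjusted p = 9.54e-04). AT3G12900, an oxygenase of the 2-oxoglutarate and Fe(II)-dependent family, had no read in dal-2 and 93 in DIF-OX2 on Dex, at least 39.3-fold lower. FIT, by contrast, had 11.7 and 11.1 CPM in dal-2, against 6.79 and 11.8 CPM in DIF-OX2 on Dex and did not pass (log2 fold change 0.26, adjusted p = 0.551). ZIF1 (AT5G13740), a vacuolar transporter induced with iron deficiency, had 11.8 and 23.4 CPM in dal-2, against 176 and 115 CPM in DIF-OX2 on Dex (log2 fold change −3.04, adjusted p = 0.00174; 0.0072 with quality weights). The negative regulator PYE fell less (log2 fold change −1.36, adjusted p = 0.0182), a call that ended without replicate 1 or replicate 2 of DIF-OX2 on Dex (adjusted p = 0.0832 and 0.0682).

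Against their own wild type the medians of the iron list lay on opposite sides. The median log2 fold change was −2.90 in dal-2 against Col-0 and 1.44 in DIF-OX2 on Dex against Col-0 on Dex. The difference between these changes passed for 15 of 19 genes, all in the negative direction, a direction called for 4.18% of all genes, and with 1 library left out for between 4 and 17 of them, the fewest when replicate 1 of Col-0 on Dex was missing. Of the 19 genes 13 were called lower in dal-2 than in Col-0, and 10 higher in DIF-OX2 on Dex than in Col-0 on Dex. How many were called higher in DIF-OX2 on Dex depended strongly on single libraries. Sums over the list were 1184 and 993 CPM in DIF-OX2 on Dex and 551 and 501 CPM in Col-0 on Dex. The replicates of Col-0 differed in this list, with sums of 1130 and 590 CPM, and the root hair and endodermis markers were lower in dal-2 as given above. The part of both in the iron values was not tested. FRO2, FIT, BHLH38, ZIF1 and PYE were named for their roles after their values were seen. The count of lower iron genes was 11 and 12 without replicate 1 or replicate 2 of DIF-OX2 on Dex.

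Upstream sequence is shown for members of the iron and flavonoid lists that hold a G-box, the hexamer CACGTG that bHLH, bZIP and other factors bind, because those lists fell furthest. The 250 bases before the annotated start of each gene were read from the RefSeq assembly TAIR10.1, 5′ to 3′ on the gene's strand, with the motif in capitals. A G-box is its own reverse complement, so 1 search covers both strands. The genes are BHLH100 (chr2:17199455-17199704, minus strand), BHLH38 (chr3:21085246-21085495, minus strand), DFR (AT5G42800) (chr5:17166033-17166282, minus strand) and UF3GT (AT5G54060) (chr5:21938397-21938646, minus strand).
BHLH100: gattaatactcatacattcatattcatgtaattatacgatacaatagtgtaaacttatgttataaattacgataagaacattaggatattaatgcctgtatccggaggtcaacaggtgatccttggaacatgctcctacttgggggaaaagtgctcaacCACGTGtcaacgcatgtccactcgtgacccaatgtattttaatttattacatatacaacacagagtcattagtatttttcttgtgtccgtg
BHLH38: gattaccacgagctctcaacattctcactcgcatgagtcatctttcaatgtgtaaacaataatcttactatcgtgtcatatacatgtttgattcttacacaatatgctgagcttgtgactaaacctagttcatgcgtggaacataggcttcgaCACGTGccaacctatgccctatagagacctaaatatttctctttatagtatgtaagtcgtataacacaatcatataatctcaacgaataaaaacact
DFR: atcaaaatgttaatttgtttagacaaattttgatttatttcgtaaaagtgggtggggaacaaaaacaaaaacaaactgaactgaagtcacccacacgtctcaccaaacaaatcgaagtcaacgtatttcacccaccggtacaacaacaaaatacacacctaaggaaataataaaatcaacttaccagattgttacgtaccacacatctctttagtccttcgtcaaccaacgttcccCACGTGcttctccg
UF3GT: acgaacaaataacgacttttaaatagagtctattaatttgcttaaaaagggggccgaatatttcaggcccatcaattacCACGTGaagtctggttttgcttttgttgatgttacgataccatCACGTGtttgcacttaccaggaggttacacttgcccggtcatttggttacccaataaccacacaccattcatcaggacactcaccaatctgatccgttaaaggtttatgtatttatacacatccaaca
The G-box begins 91 bases before the start in BHLH100, 97 in BHLH38 and 14 in DFR, and UF3GT holds 2, the first of which begins 171 bases before the start. It was found in 4 of 19 iron promoters (21.1%) and 5 of 16 flavonoid promoters (31.2%), against 7.19% of the 20579 promoters of tested nuclear genes, and in 4 of 20 antenna promoters (20.0%). Larger shares were found in the clock (6 of 12, 50.0%), the ferritins (2 of 4, 50.0%) and the unfolded protein response (3 of 8, 37.5%). No clock or ferritin gene was called lower, but 3 of 8 genes of the unfolded protein response were. A link of the G-box with the falls was not tested. The G-box is 1 of 9 motifs searched, chosen after the values had been seen, and a match describes the letters of the window and not a bound site.

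The anthocyanin branch of flavonoid synthesis, which makes red pigments of stressed or sugar-fed seedlings, was almost silent in dal-2. Of 16 tested flavonoid genes 10 fell and none rose (median log2 fold change −3.03), 4 passing with quality weights, 7 with the 4 libraries alone, and 6 stable. DFR, the reductase at the entry of the branch, was read at 0.819 and 2.05 CPM in dal-2 and at 88.8 and 81.6 CPM in DIF-OX2 on Dex (log2 fold change −5.84, SE 0.31, adjusted p = 5.63e-05). LDOX (AT4G22880), the next enzyme, had 0.751 and 1.33 CPM in dal-2, against 90.4 and 70.2 CPM in DIF-OX2 on Dex (log2 fold change −6.23, adjusted p = 8.39e-05). UF3GT, a glycosyltransferase of anthocyanins, had 0.478 and 0.389 CPM in dal-2, against 18 and 16.6 CPM in DIF-OX2 on Dex (log2 fold change −5.30, adjusted p = 9.83e-05). In each of them both dal-2 libraries were far below both libraries of DIF-OX2 on Dex, though a lack of overlap holds for every called gene. Wild-type DFR stood at 63.7 and 60.1 CPM in Col-0 and 64 and 64 CPM in Col-0 on Dex. CHS (AT5G13930), chalcone synthase at the head of the whole pathway, had 117 and 192 CPM in dal-2, against 472 and 464 CPM in DIF-OX2 on Dex (log2 fold change −1.60, adjusted p = 0.015), a call that ended without replicate 1 or replicate 2 of DIF-OX2 on Dex (adjusted p = 0.0641 and 0.0628). PAP1, a MYB regulator of the branch, had 0.205 and 0.167 CPM in dal-2, against 7 and 3.22 CPM in DIF-OX2 on Dex (log2 fold change −4.69, adjusted p = 0.0123, but 0.0588 without replicate 1 of DIF-OX2 on Dex). MYB12 and MYB111, which control the flavonol branch, did not pass (log2 fold changes −0.18 and 0.57). The MYB factors were named after their values were seen. Relative to their own wild type the list median was −2.33 in dal-2 and 0.79 in DIF-OX2 on Dex. Without replicate 1 of DIF-OX2 on Dex 6 of the 16 genes passed.

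**Figure D3:**
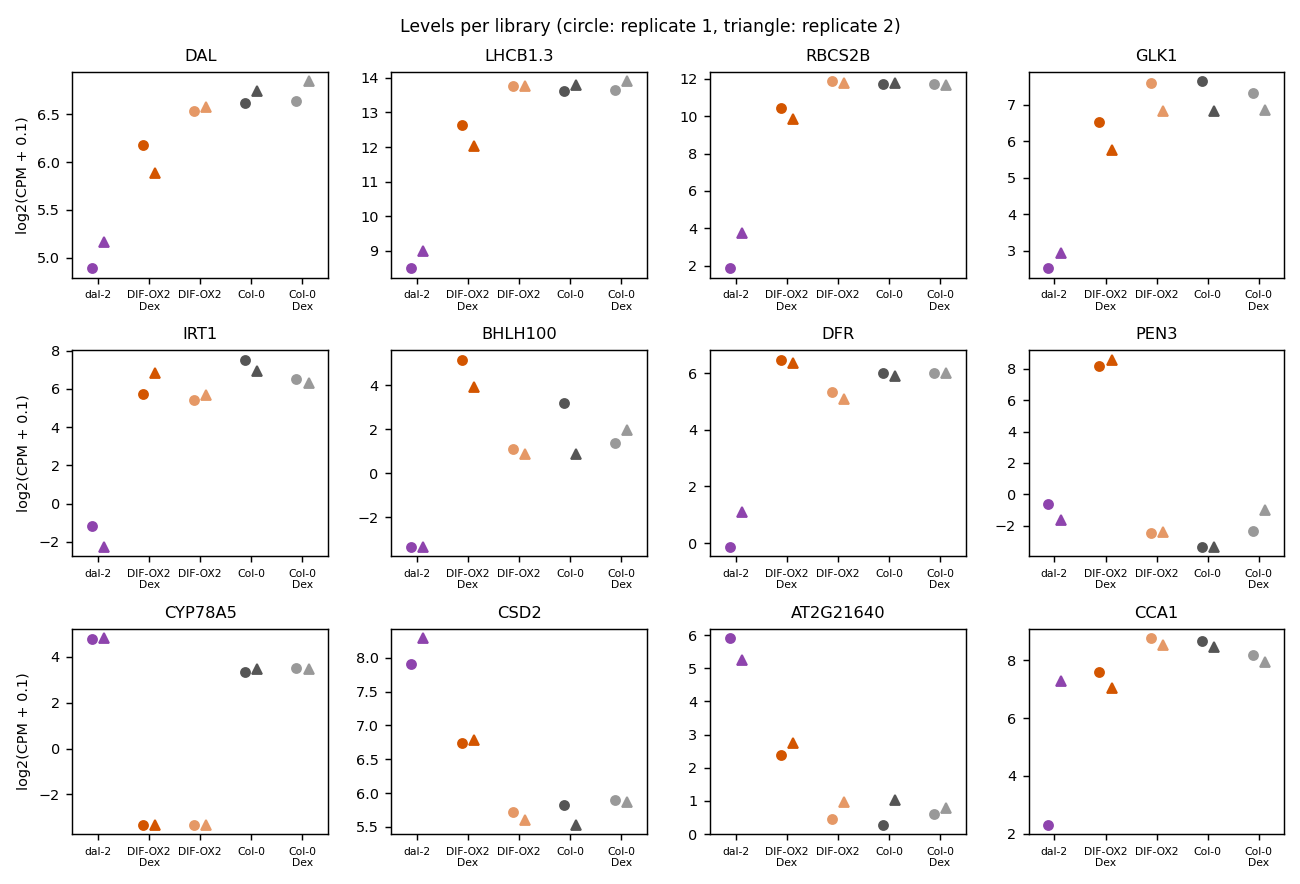
Levels of 12 genes in each of the 10 libraries as log2 of CPM plus 0.1, with dal-2 in purple, DIF-OX2 on Dex in dark orange, uninduced DIF-OX2 in light orange and Col-0 without and with Dex in greys. Each panel has its own axis; IRT1, BHLH100 and DFR are lowest in both dal-2 libraries, PEN3 stands out in DIF-OX2 on Dex alone, and CCA1 differs between the dal-2 replicates.

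Among genes of reactive oxygen handling 4 of 13 rose and 3 fell, while over all genes 8.71% rose and 12.8% fell. With quality weights 3 rose and 2 fell, and with the 4 libraries alone 1 rose and 1 fell. CSD2 (AT2G28190), a copper/zinc form of superoxide dismutase, which removes superoxide, was read at 240.5 and 314 CPM in dal-2 and at 107 and 110.4 CPM in DIF-OX2 on Dex (log2 fold change 1.35, SE 0.16, adjusted p = 0.0014). CCS (AT1G12520), the chaperone that loads copper into these enzymes, was read at 84.5 and 126 CPM in dal-2 and at 41.9 and 50.9 CPM in DIF-OX2 on Dex (log2 fold change 1.18, adjusted p = 0.00567). FSD1 (AT4G25100), an iron form, had 272 and 172 CPM in dal-2, against 662 and 507 CPM in DIF-OX2 on Dex (log2 fold change −1.40, adjusted p = 0.00774, but 0.051 without replicate 1 of DIF-OX2 on Dex). The iron forms FSD2 and FSD3, named after their values were seen, did not pass (log2 fold changes 0.32 and −0.24, adjusted p = 0.354 and 0.467). CAT3 (AT1G20620), a catalase that removes hydrogen peroxide, had 4230 and 2495 CPM in dal-2, against 834 and 748 CPM in DIF-OX2 on Dex (log2 fold change 2.09, adjusted p = 0.00453). RBOHD (AT5G47910), the NADPH oxidase that makes superoxide at the plasma membrane, had 53.9 and 60.9 CPM in dal-2, against 209 and 251 CPM in DIF-OX2 on Dex, with 73.5 and 65 CPM in Col-0 (log2 fold change −2.0, SE 0.15, adjusted p = 1.89e-04). CSD2, CCS, CAT3 and RBOHD were the stable calls of the list, and in each, as in every called gene, the dal-2 libraries did not overlap DIF-OX2 on Dex. The count of lower genes was 1 without replicate 1 of DIF-OX2 on Dex. Of the 4 ferritins, which store iron in plastids, FER4 (AT2G40300) alone passed, at 35.1 and 42.7 CPM in dal-2, against 25.5 and 20.9 CPM in DIF-OX2 on Dex (log2 fold change 0.75, adjusted p = 0.0305), and not without replicate 1 or replicate 2 of DIF-OX2 on Dex or replicate 2 of dal-2 (adjusted p = 0.0734, 0.182 and 0.0686). Without either library of Col-0 or replicate 1 of dal-2, 2 of the 4 passed. FER1 had 162 and 456 CPM in dal-2, against 131 and 210.4 CPM in DIF-OX2 on Dex (log2 fold change 0.85, adjusted p = 0.237; 0.0197 without replicate 1 of dal-2).

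Defence genes gave more lower than higher calls in dal-2 against DIF-OX2 on Dex. A lower call in this comparison need not mean a level below the wild type. Of 19 genes of salicylate synthesis, signalling and systemic defence 7 fell and 1 rose, and their median log2 fold change was −0.60, and 5 fell with quality weights and 4 with the 4 libraries alone. Relative to the own wild type the list median was positive in both lines. It was 0.79 in dal-2, where 6 rose and 4 fell, and 1.2 in DIF-OX2 on Dex, where 11 rose and none fell. PBS3 (AT5G13320), which joins glutamate to isochorismate on the way to salicylate, was read at 3.21 and 3.77 CPM in dal-2 and at 31 and 32.7 CPM in DIF-OX2 on Dex (log2 fold change −3.18, SE 0.21, adjusted p = 1.18e-04). SARD1 (AT1G73805), a master regulator of that synthesis, was read at 9.01 and 4.33 CPM in dal-2 and at 71.9 and 92.2 CPM in DIF-OX2 on Dex (log2 fold change −3.63, SE 0.39, adjusted p = 9.46e-04). Both dal-2 libraries were far below DIF-OX2 on Dex, and in Col-0 PBS3 had 1.67 and 2.37 CPM. PBS3, SARD1, SARD4 and ICS1 were the stable calls. ICS1 (AT1G74710), isochorismate synthase, had 13.2 and 13.9 CPM in dal-2, against 26.1 and 24.6 CPM in DIF-OX2 on Dex (log2 fold change −0.90, adjusted p = 0.00213) and was named, like SARD4, after its values were seen. PR1 (AT2G14610), an antimicrobial protein used as the marker of the pathway, had 42.9 and 0.389 CPM in dal-2, against 21.2 and 14.1 CPM in DIF-OX2 on Dex, so that the dal-2 replicates lay on either side of DIF-OX2 on Dex (log2 fold change 0.29, adjusted p = 0.884). It was called lower without replicate 1 of dal-2 and higher without its replicate 2 (log2 fold changes −5.45 and 1.299, adjusted p = 2.41e-04 and 0.00748). Without replicate 1 or replicate 2 of DIF-OX2 on Dex 5 and 4 of the 19 genes were called lower and none higher.

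Of 23 genes of jasmonate synthesis and response 8 fell and none rose (median log2 fold change −0.67), of which 6 passed with quality weights, 5 with the 4 libraries alone and 5 were stable. LOX2 (AT3G45140), the lipoxygenase that starts the synthesis in plastids, had 62.5 and 28.6 CPM in dal-2, against 255 and 233 CPM in DIF-OX2 on Dex (log2 fold change −2.42, adjusted p = 0.00255). JAZ10 (AT5G13220), a repressor induced by jasmonate, had 1.36 and 3.33 CPM in dal-2, against 14.9 and 20.2 CPM in DIF-OX2 on Dex (log2 fold change −2.88, adjusted p = 0.00304). The defensin PDF1.2 (AT5G44420) had 1 read in dal-2 and 244 in DIF-OX2 on Dex, a ratio of 310 (95% counting interval 55.0 to 12300). PDF1.2 had no read in Col-0, Col-0 on Dex or uninduced DIF-OX2, so its reads came almost all from DIF-OX2 on Dex. The receptor COI1 and the transcription factor MYC2, named for their roles after their values were seen, did not pass (log2 fold changes −0.41 and 0.23). Relative to the own wild type the median of the jasmonate list was 0.05 in dal-2 and 0.25 in DIF-OX2 on Dex.

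Tryptophan-derived defence compounds gave 5 lower genes and 1 higher among 12, with 4 and 1 in the fit with quality weights, 2 and 1 with the 4 libraries alone and 3 stable calls. Relative to the own wild type the median of these 12 genes was 1.29 in dal-2 (6 rose, 2 fell) and 1.8 in DIF-OX2 on Dex (7 rose, none fell). AT1G26380, an FAD-binding berberine family protein, was read at 3.69 and 2.05 CPM in dal-2 and at 30.1 and 40.8 CPM in DIF-OX2 on Dex (log2 fold change −3.64, SE 0.30, adjusted p = 2.89e-04). IGMT1 (AT1G21100), an indole glucosinolate methyltransferase, was the one that rose, at 41.1 and 71.1 CPM in dal-2, against 7 and 12.4 CPM in DIF-OX2 on Dex (log2 fold change 2.51, adjusted p = 0.0026), with 5.01 and 6.36 CPM in Col-0. PAD3 (AT3G26830), the last enzyme of camalexin synthesis, had 12.2 and 3.61 CPM in dal-2, against 13.7 and 18.9 CPM in DIF-OX2 on Dex and did not pass (log2 fold change −1.06, adjusted p = 0.149), except without replicate 1 of dal-2 (adjusted p = 0.00176). Without replicate 2 of DIF-OX2 on Dex 2 of the 12 genes were called lower. All 18 genes of methionine-derived glucosinolates had negative fold changes (median log2 fold change −0.89), of which 5 passed, 4 with quality weights, 1 with the 4 libraries alone and 3 stably. MAM3 (IMS2 in the annotation), which elongates the side chain, had 45.9 and 20.6 CPM in dal-2, against 252 and 410.1 CPM in DIF-OX2 on Dex (log2 fold change −3.32, SE 0.38, adjusted p = 0.00112). CYP79F2 (AT1G16400), a cytochrome P450 that acts on the elongated amino acids, had 13.9 and 5.72 CPM in dal-2, against 51.8 and 86.8 CPM in DIF-OX2 on Dex (log2 fold change −2.83, adjusted p = 0.00311). Both were below DIF-OX2 on Dex in both dal-2 libraries, as every gene called lower was, and more so in replicate 2. The regulator MYB28 did not pass (62.3 and 32.5 CPM in dal-2, against 70.8 and 69.8 CPM in DIF-OX2 on Dex, log2 fold change −0.57, adjusted p = 0.351). Relative to the own wild type the median of these 18 genes was −1.05 in dal-2 and 0.14 in DIF-OX2 on Dex. The count of lower genes was 3 without replicate 1 or replicate 2 of DIF-OX2 on Dex and 11 without replicate 1 of dal-2.

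Genes of the mitochondrial dysfunction response, marked by alternative oxidases and controlled by NAC factors, moved in both directions. Of 17 tested genes 4 rose and 5 fell (median log2 fold change 0.07), and 3 calls were stable. With quality weights 2 rose and 3 fell, and with the 4 libraries alone 2 rose and 1 fell. AT2G21640, annotated as a marker of oxidative stress, was read at 60.2 and 37.9 CPM in dal-2 and at 5.17 and 6.56 CPM in DIF-OX2 on Dex, with 1.11 and 1.94 CPM in Col-0 (log2 fold change 3.05, SE 0.29, adjusted p = 5.14e-04). AOX1C (AT3G27620), an alternative oxidase, had 4.84 and 4.55 CPM in dal-2, against 0.538 and 0.243 CPM in DIF-OX2 on Dex (log2 fold change 3.67, adjusted p = 0.00429, but 0.0562 without replicate 2 of DIF-OX2 on Dex), whereas its paralogue AOX1D (AT1G32350) had 0.887 and 0.278 CPM in dal-2, against 4.31 and 6.19 CPM in DIF-OX2 on Dex (log2 fold change −3.21, adjusted p = 0.00484). AOX1A (AT3G22370), the main stress-induced alternative oxidase, had 67.3 and 56.1 CPM in dal-2, against 59.8 and 57.8 CPM in DIF-OX2 on Dex and did not pass (log2 fold change 0.07, adjusted p = 0.739), with 36.6 and 33.1 CPM in Col-0. NDA1 (AT1G07180), an alternative NADH dehydrogenase, had 4.64 and 27.8 CPM in dal-2, against 86.4 and 52.1 CPM in DIF-OX2 on Dex (log2 fold change −2.08, adjusted p = 0.0494), but it did not pass when any library other than a dal-2 library was left out (adjusted p between 0.0762 and 0.202). Without replicate 2 of DIF-OX2 on Dex 1 gene was called higher and 2 lower. Against their own wild type the list median was 1.13 in dal-2 and 1.01 in DIF-OX2 on Dex.

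The promoters of AT2G21640 (chr2:9254128-9254377, plus strand) and NDA1 (chr1:2203854-2204103, plus strand) are shown because both hold the mitochondrial dysfunction motif, which NAC factors of that response bind, although the genes moved in opposite directions. The 250 bases before each annotated start are from the same assembly, with the motif in capitals.
AT2G21640: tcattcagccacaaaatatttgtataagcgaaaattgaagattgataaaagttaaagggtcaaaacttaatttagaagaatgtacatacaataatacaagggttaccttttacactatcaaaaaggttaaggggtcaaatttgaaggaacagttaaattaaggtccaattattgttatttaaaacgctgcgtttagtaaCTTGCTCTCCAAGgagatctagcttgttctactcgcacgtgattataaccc
NDA1: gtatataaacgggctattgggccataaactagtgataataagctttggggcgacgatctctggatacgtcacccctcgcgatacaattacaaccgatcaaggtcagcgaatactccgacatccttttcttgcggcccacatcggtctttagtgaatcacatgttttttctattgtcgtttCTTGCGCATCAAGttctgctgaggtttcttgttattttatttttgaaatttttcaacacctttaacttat
The motif, searched on both strands, begins 51 bases before the start in AT2G21640 and 70 in NDA1. It was found in 5 of 17 promoters of the list and in 0.952% of all 20579.

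Sugar and starch genes gave lower calls only. Of 14 tested genes 7 fell (median log2 fold change −1.26), 7 with quality weights, 4 with the 4 libraries alone and 4 without replicate 1 of DIF-OX2 on Dex, and 4 calls were stable. GPT2 (AT1G61800), which moves glucose 6-phosphate into plastids and is induced by sugar, was read at 1.43 and 3.72 CPM in dal-2 and at 63 and 34.9 CPM in DIF-OX2 on Dex (log2 fold change −4.21, SE 0.49, adjusted p = 0.00178). In the wild type it had 0 and 0 CPM in Col-0 and 0.0949 and 0.272 CPM in Col-0 on Dex. APL3 (AT4G39210), a subunit of the enzyme that commits glucose to starch, had 9.14 and 10.2 CPM in dal-2, against 69.4 and 50.8 CPM in DIF-OX2 on Dex (log2 fold change −2.63, adjusted p = 0.00251). GBSS1 (AT1G32900), the synthase of amylose, had 3.07 and 22.8 CPM in dal-2, against 239 and 158 CPM in DIF-OX2 on Dex (log2 fold change −3.93, adjusted p = 0.0106, but 0.0501 without replicate 1 of DIF-OX2 on Dex). All of them were lower in both dal-2 libraries than in DIF-OX2 on Dex, as every gene called lower was. In nitrogen assimilation 3 of 9 genes fell and none rose, all of them stable and passing with quality weights, 2 with the 4 libraries alone. They were GLN2 (AT5G35630), the plastid glutamine synthetase (147 and 317 CPM in dal-2, against 1192 and 902 CPM in DIF-OX2 on Dex, log2 fold change −2.17, adjusted p = 0.00445), NIA2, a nitrate reductase (log2 fold change −1.78, adjusted p = 5.14e-04), and the ammonium transporter AMT1;1 (log2 fold change −1.83, adjusted p = 0.00221). NIA1, the other nitrate reductase, had 508 and 243 CPM in dal-2, against 203 and 251 CPM in DIF-OX2 on Dex and did not pass except without replicate 2 of dal-2 (adjusted p = 0.119 and 9.42e-04). The counts were 6 lower without replicate 1 of dal-2, and 4 lower and 3 higher without its replicate 2.

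Of 3 root triterpene synthases 2 rose and 1 fell. PEN3 (AT5G36150), annotated as a putative pentacyclic triterpene synthase, was read at 0.546 and 0.222 CPM in dal-2 and at 284 and 382 CPM in DIF-OX2 on Dex (log2 fold change −9.78, SE 0.41, adjusted p = 5.57e-05). It lay below 1 CPM in all 8 other libraries, so it was high in DIF-OX2 on Dex alone. All 3 synthases, PEN3 among them, were called higher in dal-2 than in Col-0. In the difference of each line's change from its own wild type none of the 3 was called lower. THAS1 (AT5G48010), thalianol synthase, had 48.1 and 31 CPM in dal-2, against 13.9 and 15.3 CPM in DIF-OX2 on Dex (log2 fold change 1.43, adjusted p = 0.0027). MRN1 (AT5G42600), marneral synthase, had 44 reads in dal-2 and 1 in DIF-OX2 on Dex, a ratio of 34.7 (95% counting interval 5.91 to 1400). MRN1 did not pass without replicate 1 or replicate 2 of DIF-OX2 on Dex (adjusted p = 0.0502 and 0.0539).

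Of 16 tested genes of vegetative phase change and flowering 6 rose and none fell (median log2 fold change 0.59), at equal leaf number but in plants of 20 to 21 and 12 days. SPL9 (AT2G42200), a factor that promotes the adult phase, had 6.21 and 7.05 CPM in dal-2, against 2.05 and 1.4 CPM in DIF-OX2 on Dex (log2 fold change 1.98, SE 0.32, adjusted p = 0.00463). Col-0 had 8.24 and 5.39 CPM. SPL3 (AT2G33810), of the same family, had 89 reads in dal-2 and 3 in DIF-OX2 on Dex, a ratio of 23.4 (95% counting interval 7.75 to 116). Both passed with quality weights and were the stable calls of the list, and without replicate 1 or replicate 2 of DIF-OX2 on Dex 3 and 2 of the 16 genes passed. FLC, the floral repressor, did not pass (2.32 and 2.61 CPM in dal-2, against 1.83 and 1.7 CPM in DIF-OX2 on Dex) and was named after its values were seen. All 3 tested floral organ identity genes were called higher (1 with quality weights and none with the 4 libraries alone), with summed levels of 18.1 and 13.9 CPM in dal-2 and 3.55 and 2.31 CPM in DIF-OX2 on Dex, but none of them without replicate 2 and 1 without replicate 1 of DIF-OX2 on Dex. Of 8 seed maturation genes 2 had enough reads to be tested, and CRU3, a seed storage protein, had 31 reads in dal-2 and none in DIF-OX2 on Dex, at least 8.14-fold higher. It did not pass without replicate 1 or replicate 2 of DIF-OX2 on Dex (adjusted p = 0.0739 and 0.107).

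SPCH (AT5G53210), which starts the stomatal lineage, was read at 3.75 and 2.22 CPM in dal-2 and at 26 and 30.7 CPM in DIF-OX2 on Dex, with 7.24 and 5.18 CPM in Col-0 (log2 fold change −3.26, SE 0.26, adjusted p = 2.63e-04). TMM, a receptor-like protein of the same lineage, fell as well (log2 fold change −1.37, adjusted p = 0.00777). MUTE and FAMA, which act later in it, did not pass. In all, 3 of 13 genes of the stomatal lineage and trichomes fell and none rose, with 2 lower with quality weights, 1 with the 4 libraries alone and 2 stable. Of 15 cell division genes 4 fell and 1 rose, none of them stable, and 1 fell with quality weights and none passed with the 4 libraries alone. None passed without replicate 1 of DIF-OX2 on Dex, 2 without its replicate 2 or a library of Col-0 on Dex, 3 without a library of uninduced DIF-OX2 and 9 without replicate 1 of dal-2. Of the root lists, 4 of 5 root hair genes and 4 of 5 endodermis genes fell and none of 4 root tip genes passed. With quality weights 3 root hair genes and no endodermis gene passed, with the 4 libraries alone 1 and none, and 3 root hair calls and no endodermis call were stable. LRX1 (AT1G12040), a cell wall protein of root hairs, had 10.7 and 9.33 CPM in dal-2, against 30.6 and 39 CPM in DIF-OX2 on Dex (log2 fold change −1.80, SE 0.16, adjusted p = 3.75e-04). EXPA18, an expansin of root hairs, had 5.46 and 4.05 CPM in dal-2, against 12.3 and 16.8 CPM in DIF-OX2 on Dex (log2 fold change −1.63, adjusted p = 0.00245). Of the 5 endodermis genes 2 passed without either library of Col-0 or uninduced DIF-OX2 or without replicate 2 of dal-2, 1 without either library of Col-0 on Dex, and 0 when replicate 2 of DIF-OX2 on Dex was missing. IAA7 (AT3G23050), an auxin-induced repressor, had 193 and 166 CPM in dal-2, against 84.4 and 70.9 CPM in DIF-OX2 on Dex (log2 fold change 1.21, adjusted p = 0.00139) and was the stable one of 2 rises among 12 early auxin genes. The other rise was lost without replicate 2 of DIF-OX2 on Dex, without replicate 2 of dal-2 and without either library of Col-0 on Dex, while 4 rose and 2 fell without replicate 1 of dal-2 and 2 fell without its replicate 2. In the abscisic acid and dehydration response 3 of 12 genes fell and 2 rose, with ABI2 (AT5G57050), a phosphatase that restrains the pathway, as the stable call at 8.39 and 11.4 CPM in dal-2, against 28.4 and 26.1 CPM in DIF-OX2 on Dex (log2 fold change −1.46, adjusted p = 0.00378). In that list 2 fell and 1 rose with quality weights, and 1 fell with the 4 libraries alone. Fewer genes than in the fit of all libraries passed when 1 library of any group other than dal-2 was left out.

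Some differences concern only 1 of the dal-2 libraries, as the clock shows. CCA1 and LHY peak at dawn in the wild type, and TOC1, PRR5 and ELF4 later in the day; all but CCA1 were chosen after their values were seen. CCA1 (AT2G46830) had 4.84 and 155 CPM in dal-2, against 195 and 133 CPM in DIF-OX2 on Dex, and LHY 1.3 and 90.1 CPM in dal-2, against 247 and 181 CPM in DIF-OX2 on Dex. TOC1 (AT5G61380) had 163 and 32.6 CPM in dal-2, against 28.6 and 28.4 CPM in DIF-OX2 on Dex, PRR5 86 and 1.94 CPM in dal-2, against 1.83 and 2.25 CPM in DIF-OX2 on Dex and ELF4 90.4 and 0.278 CPM in dal-2, against 1.72 and 2.91 CPM in DIF-OX2 on Dex. Replicate 2 of dal-2 was close to DIF-OX2 on Dex in CCA1, TOC1 and PRR5, whereas replicate 1 had low dawn genes and high later genes. None of these 5 passed the test with all libraries (adjusted p = 0.514, 0.213, 0.067, 0.0518 and 0.098). Without replicate 2 of dal-2 7 of the 12 clock genes were called higher and 5 lower. PRR7 (AT5G02810) was the only clock gene called, and stably so, at 162 and 222 CPM in dal-2, against 75.6 and 74.6 CPM in DIF-OX2 on Dex (log2 fold change 1.35, adjusted p = 0.00174). The time of day of harvest is not given in the labels, and its part in any result here was not tested.

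Over the lists, the dal-2 replicates were on the same side of DIF-OX2 on Dex in the light harvesting list, with median differences in log2(CPM + 0.5) of −3.93 and −2.04 for replicates 1 and 2. The same held for the iron list (−3.08 and −3.39) and the flavonoid list (−2.09 and −2.55). They were on opposite sides in cytosolic heat shock (−1.04 and 0.83), in carbon starvation and senescence (−0.29 and 0.99), in the clock (1.03 and −0.05), in the abscisic acid response (−0.50 and 0.41), in sigma factors and phage-type polymerases (−0.47 and 0.19) and in the root tip (−0.20 and 0.02). In the heat list 1 of 9 genes was called and none with quality weights or the 4 libraries alone. It was HSP18.2 (log2 fold change 1.06, adjusted p = 0.0302), but not without replicate 2 of DIF-OX2 on Dex or of dal-2 (adjusted p = 0.187 and 0.058). Without replicate 1 of dal-2 5 heat genes were called higher and 1 lower, and without its replicate 2 none higher and 6 lower. Of 12 senescence genes 2 rose and 1 fell (over all genes 8.71% and 12.8%), with 1 higher with quality weights and none passing with the 4 libraries alone. SAG29 (AT5G13170), a sugar transporter of senescing leaves, was the stable one at 0.478 and 2.83 CPM in dal-2, against 16.2 and 16.6 CPM in DIF-OX2 on Dex (log2 fold change −3.24, adjusted p = 0.00802). The senescence counts were 5 higher and 1 lower without replicate 1 of dal-2, and none higher and 1 lower without replicate 1 of DIF-OX2 on Dex. In the unfolded protein response of the endoplasmic reticulum 3 of 8 genes fell and 1 with quality weights, and none of the 8 passed with the 4 libraries alone, without replicate 1 or without replicate 2 of DIF-OX2 on Dex.

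**Figure D4:**
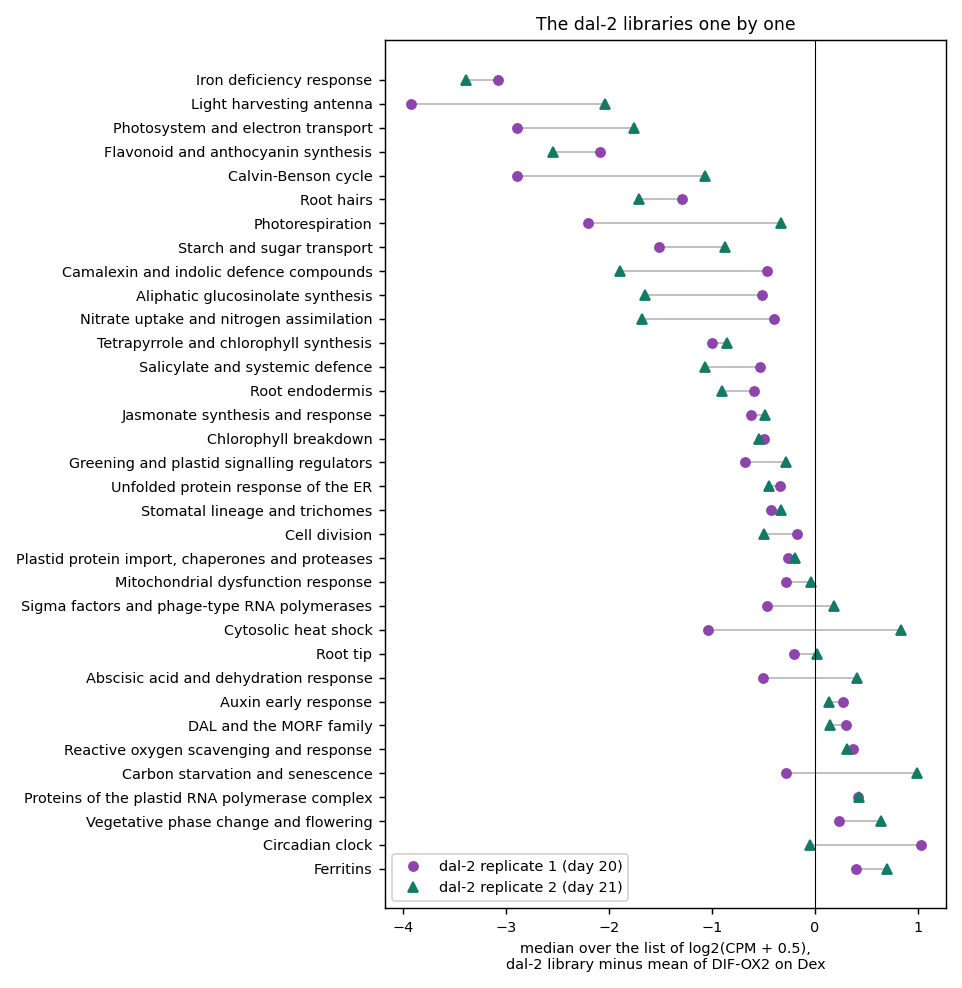
Median over each gene list with at least 4 tested members of log2(CPM + 0.5) in a dal-2 library minus the mean of both libraries of DIF-OX2 on Dex, with replicate 1 of dal-2 (day 20) as purple circles and replicate 2 (day 21) as green triangles. The iron list lies at −3.08 and −3.39 and the heat shock list at −1.04 and 0.83.

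The largest differences by gene followed, among genes without overlap whose mean count reached 50. CYP78A5 (KLUH), a cytochrome P450 that promotes organ growth, stood at 27.5 and 28 CPM in dal-2 and had no read in DIF-OX2 on Dex, at least 239-fold higher. It also had no read in uninduced DIF-OX2, while it was read at 10.0 and 11 CPM in Col-0 and 11.2 and 10.8 CPM in Col-0 on Dex, so it was absent from the counts of the DIF-OX2 line with and without induction. AT2G33830, a dormancy and auxin associated protein, had 331 and 89 CPM in dal-2, against 2.58 and 2.91 CPM in DIF-OX2 on Dex (log2 fold change 6.24, adjusted p = 0.00733), not passing without replicate 1 or replicate 2 of DIF-OX2 on Dex (adjusted p = 0.0636 and 0.0684). AT1G52110, a mannose-binding lectin, had 19.9 and 8.55 CPM in dal-2, against 0.215 and 0.182 CPM in DIF-OX2 on Dex (log2 fold change 6.12, adjusted p = 6.70e-04). AT2G24255, an F-box and kelch-repeat protein, was at 12.6 and 6.83 CPM in dal-2 and at least 80.9-fold higher, and AT3G41979, a 5.8S ribosomal RNA gene, at 5.87 and 7.72 CPM and at least 59.1-fold higher, since neither had a read in DIF-OX2 on Dex. AT1G20750, a RAD3-like helicase, had 212 reads in dal-2 and 1 in DIF-OX2 on Dex, a ratio of 167 (95% counting interval 29.7 to 6630). COR27 (AT5G42900), a cold and clock regulated gene, and AT1G56300, a DnaJ-domain protein, were high in replicate 1 of dal-2 only, with 40.9 and 0.777 CPM in dal-2, against 0 and 0.243 CPM in DIF-OX2 on Dex for COR27 and 85.7 and 2.17 CPM in dal-2, against 0.538 and 0.789 CPM in DIF-OX2 on Dex for AT1G56300. Neither passed without replicate 1 or replicate 2 of DIF-OX2 on Dex (adjusted p = 0.148 and 0.153 for COR27, 0.141 and 0.155 for AT1G56300), nor COR27 without replicate 1 of dal-2 (adjusted p = 0.0688) or either library of Col-0 on Dex (adjusted p = 0.0537).

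At the other end HO4 (AT1G58300), a haem oxygenase, had no read in dal-2 and 61.4 and 59.3 CPM in DIF-OX2 on Dex, at least 654-fold lower. Its level was below 1 CPM in all 6 libraries of the other groups. CYP702A2 (AT4G15300), a cytochrome P450, was read at 0.137 and 0.111 CPM in dal-2 and at 107 and 124 CPM in DIF-OX2 on Dex, with 1.78 and 1.29 CPM in Col-0 (log2 fold change −9.77, SE 0.24, adjusted p = 1.60e-06). AT3G05950, a cupin, had 0.341 and 0.0555 CPM in dal-2, against 122 and 164 CPM in DIF-OX2 on Dex (log2 fold change −9.52, adjusted p = 7.68e-05). EXPA19 (AT3G29365), an expansin, AT5G25960, a DUF239 protein, and AT2G16960, an ARM repeat protein, had no read in dal-2 and were at least 252-fold, 144-fold and 85.9-fold lower. EXPA19 had no read in any library but those of DIF-OX2 on Dex, where it stood at 17.9 and 26.1 CPM. All 8 of the largest falls kept their calls without each of the 10 libraries in turn, and all but BHLH100 with quality weights (adjusted p = 0.189 for BHLH100).

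To take the effect of Dex on the wild type out, each line was set against its own control, dal-2 against Col-0 and DIF-OX2 on Dex against Col-0 on Dex, and the changes were compared in the same fit. Their difference passed for 1255 genes (6.07%), 391 (1.89%) positive, that is higher in dal-2 than in DIF-OX2 on Dex relative to the controls, and 864 (4.18%) negative. The difference in age remains in this contrast. Its calls numbered between 236 and 547 when any library of Col-0, Col-0 on Dex or DIF-OX2 on Dex was left out, 725 and 731 without a library of uninduced DIF-OX2, and 2888 and 3810 without replicate 1 or 2 of dal-2. Because the direct comparison and these changes share libraries, the following counts are a description (in dal-2 against Col-0 33.9% of genes were called, 15.9% higher and 18% lower, and in DIF-OX2 on Dex against Col-0 on Dex 22%, 11.6% higher and 10.4% lower). Of the 2653 genes called lower in dal-2 than in DIF-OX2 on Dex, 424 were below the wild type in both lines (112 to 945 with 1 library left out), 843 in dal-2 only (423 to 961) and 118 in dal-2 while above it in DIF-OX2 on Dex (37 to 235). Another 717 were above the wild type in DIF-OX2 on Dex only (269 to 975). Of the 1802 genes called higher in dal-2, 905 were above the wild type in dal-2 only (296 to 1442), 88 in both lines (20 to 271), 61 in dal-2 while below it in DIF-OX2 on Dex (12 to 162), and 246 were below it in DIF-OX2 on Dex only (30 to 551). The lowest counts came without a library of DIF-OX2 on Dex or of Col-0 on Dex, and the highest without a dal-2 library. The antenna list had medians of −4.26 in dal-2 against Col-0 and −1.57 in DIF-OX2 on Dex against Col-0 on Dex.

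The genes farthest apart with calls on opposite sides of the wild type were HO4, CYP702A2, AT2G16960, AT1G13609 and AT3G58060 on the low side of dal-2. CYP702A2 had log2 fold changes of −3.54 in dal-2 against Col-0 and 5.94 in DIF-OX2 on Dex against Col-0 on Dex (difference −9.48, adjusted p = 6.02e-05). AT1G13609, a defensin-like protein, had 0.751 and 0 CPM in dal-2, against 50.9 and 29.7 CPM in DIF-OX2 on Dex, with 38 and 5.07 CPM in Col-0, whose replicates also differed. AT3G58060, a cation efflux protein, had 2 reads in dal-2 and 186 in DIF-OX2 on Dex, a ratio of 118 (95% counting interval 32.2 to 982). On the high side were scpl2 (AT1G73300), AT1G45015, AT1G70885, AT4G14060 and AT4G32340. The serine carboxypeptidase-like gene scpl2 had 4.5 and 11.9 CPM in dal-2, against 0.215 and 0.121 CPM in DIF-OX2 on Dex, with 1.78 and 1.62 CPM in Col-0 (difference 5.49, adjusted p = 0.0142). AT4G14060, annotated with polyketide cyclase and lipid transport domains, had 13.8 and 11.6 CPM in dal-2, against 1.29 and 1.52 CPM in DIF-OX2 on Dex, with 4.23 and 2.91 CPM in Col-0 (difference 3.41, adjusted p = 0.00426). In scpl2 and AT4G14060 all Col-0 libraries lay between those of the lines.

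**Figure D5:**
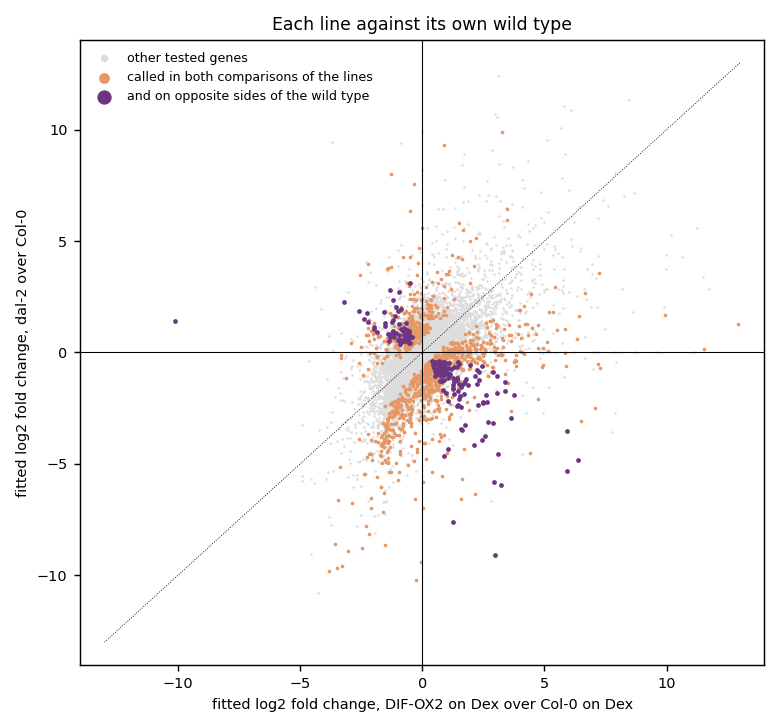
Fitted log2 fold change of dal-2 over Col-0 (vertical axis) against that of DIF-OX2 on Dex over Col-0 on Dex (horizontal axis) for the 20681 tested genes, with genes called in both the direct comparison and the difference of the changes in orange. Genes in purple, 118 lower and 61 higher in dal-2, were called on opposite sides of the wild type, and points on the dotted diagonal changed equally in both lines.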

How the data were processed

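Whole-seedling RNA from 5 groups of 2 libraries was sequenced, and the deposited table holds raw read counts per gene, which the authors made with Trimmomatic, TopHat2 and HTSeq against TAIR10, per the submitters' processing notes. Versions, strand setting and the handling of reads that map to several genes are among the details not given in the sources used here. Reads of near-identical or overlapping genes may therefore be shared. Libraries held 8805568 to 16556322 counted reads.

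Counts of 33602 genes were filtered with filterByExpr (20681 kept), scaled with TMM and tested with edgeR 4.0.16 in R 4.3.3 by the quasi-likelihood test, with 1 coefficient per group over all 10 libraries, and Benjamini-Hochberg adjusted p below 0.05 was the call. The direct contrast was dal-2 minus DIF-OX2 on Dex, and a further contrast took the difference of each line's change from its own Col-0 control. Alternatives used limma 3.58.1 (voom, with and without sample quality weights), DESeq2 1.42.0, other scalings and filters, fewer libraries, a 2-fold minimum and a replicate block. On counts simulated for this comparison over 20384 tested genes, the fit made 134 calls, of which 8 were false, and recovered 34% of 2-fold and 92% of 4-fold changes. The simulated counts had 1 spread per gene in all groups, and only a small part of the genes was changed. In the data the replicates of dal-2 lay further apart than those of DIF-OX2 on Dex (standard deviations 0.679 and 0.333). The simulated rates therefore do not carry over to the real comparison.

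Genes were named by rule: DAL, the 8 largest called rises and falls without overlap whose mean count reached 50, the first member and up to 3 called rises and falls of each list, the largest change of lists without a call, and the 5 genes per direction farthest on opposite sides of the wild type. Not all of these are printed, and genes outside the rule are marked as named after their values were seen, which also holds for FNR2, MORF4, MORF9, HY5, HYH, GUN1, FSD2, FSD3, MUTE and FAMA. The genes, lists and comparison were chosen with earlier results of these data known, so no list count is independent support. Symbols and products are from RefSeq (32835 genes matched). Counting intervals are exact at 95%, bounds use a floor of 3 counts over a group, and both cover counting error only. Promoters are 250 bases upstream of RefSeq starts in TAIR10.1, and 9 motifs were searched on both strands. The G-box (CACGTG) and the mitochondrial dysfunction motif (by its name alone, since a late position allows A or C) are reported, and the other 7, among them the W-box (TTGACC or TTGACT), are not. No label says that same-numbered libraries of dal-2 and DIF-OX2 on Dex share more than the number.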

Additional observations from a re-analysis of the deposited data

How the results depend on the processing

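The 4455 calls of the direct comparison kept their sign in every alternative run, but their number did not hold: 793 genes passed with only the 4 libraries, 1798 with sample quality weights and 725 with a 2-fold minimum. Leaving out 1 library gave between 1901 and 6187. The lowest counts were without replicate 2 (1901) and replicate 1 (1984) of DIF-OX2 on Dex, and the highest without a dal-2 library, where the spread of the remaining one is taken from the other groups. The cause was not tested. DESeq2 size factors gave 4465, upper quartile scaling 4576, no filter 4431, a filter of 5 CPM 3743, no organellar genes 4453, limma-voom 4484 and the DESeq2 Wald test 4382. The 1255 calls of the difference between the lines' own changes became 752 with only its 8 libraries, 224 with a 2-fold minimum, 852 with quality weights and 1820 with DESeq2. Leaving out 1 library gave 236 to 3810. Correlations of replicate deviations ran from −0.124 (dal-2 with DIF-OX2 on Dex) to 0.539 (uninduced DIF-OX2 with Col-0) over the 10 pairs of groups and passed 0.1 in 5, among them all 3 pairs of Col-0, Col-0 on Dex and uninduced DIF-OX2. The numbers were therefore not taken to pair dal-2 with DIF-OX2 on Dex. The replicate block gave 4799 direct and 1518 difference calls, and the block with dal-2 numbers exchanged, an alternative chosen after seeing the data, 4539 and 1365. Of 135 named genes that passed, 95 also passed with quality weights, 59 with the 4 libraries and 73 without each of those 4 in turn. Of the named genes PR1 turned its direction, with a log2 fold change of −5.45 (adjusted p = 2.41e-04) without replicate 1 and 1.299 without replicate 2 of dal-2, and its sign was also negative, without a call, with limma-voom and with both blocks. Depth limits the low end: 12921 genes had too few reads to be tested.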

Other observations

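Some gene families, picked by product or symbol after the values were seen, gave calls mostly in 1 direction, and others did not. These families in part share members with the lists above, so their counts are not separate from those lists. Of 255 genes annotated as pentatricopeptide repeat proteins, most of which bind organellar RNA and some of which serve the editing in which DAL acts, 48 were called higher in dal-2 than in DIF-OX2 on Dex (18.8%, against 8.71% of all genes) and 1 lower (0.392%, against 12.8%), with a median log2 fold change of 0.58. In 167 of them both dal-2 libraries lay above both libraries of DIF-OX2 on Dex, as in 26.7% of all genes. The differences were small and depend on the fit: 8 rose with quality weights, 1 with the 4 libraries alone, 10 without replicate 1 and 5 without replicate 2 of DIF-OX2 on Dex, and 103 without replicate 2 of dal-2. AT2G42920 had 18.1 and 18.7 CPM in dal-2, against 8.29 and 5.77 CPM in DIF-OX2 on Dex (log2 fold change 1.4, adjusted p = 0.0025 by edgeR's quasi-likelihood test). Against their own wild type the family's median was 0.54 in dal-2 and −0.07 in DIF-OX2 on Dex.

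Of 55 genes annotated as peroxidases, a family that acts on cell walls and in defence, 18 were called lower in dal-2 (32.7%) and 4 higher (7.27%). Over all genes 12.8% were called lower and 8.71% higher. With quality weights 10 peroxidases were lower and 2 higher, and with the 4 libraries alone 6 and 1. PRX52 had 0.546 and 1.89 CPM in dal-2, against 21.3 and 29.1 CPM in DIF-OX2 on Dex (log2 fold change −4.32, adjusted p = 5.55e-04 by edgeR). Of 26 xyloglucan endotransglucosylases, which remodel cell walls, 7 were called lower (26.9%) and 1 higher (3.85%), with 4 lower and none higher with the 4 libraries alone. XTH26 had 0.682 and 0.389 CPM in dal-2, against 6.03 and 6.56 CPM in DIF-OX2 on Dex (log2 fold change −3.56, adjusted p = 2.14e-04 by edgeR). Root hair markers summed to 30.84 and 22.04 CPM in dal-2 and to 68.5 and 91.6 CPM in DIF-OX2 on Dex, and their part in these values was not tested. Of 36 glutathione transferases of the tau and phi classes 11 were called lower (30.6%) and 1 higher (2.78%). With quality weights 4 were lower and 1 higher, and with the 4 libraries alone 3 were lower and none higher. GSTF12, known as TT19 for its part in anthocyanin transport and also a member of the flavonoid list, had 1.23 and 1.39 CPM in dal-2, against 28.3 and 26.96 CPM in DIF-OX2 on Dex (log2 fold change −4.39, adjusted p = 1.79e-04 by edgeR).

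Of 167 genes with CYP and a number as symbol 33 were called higher (19.8%) and 31 lower (18.6%), with a median log2 fold change of −0.06. The symbol was taken to mark cytochrome P450 genes, but it took in at least CYP38 (AT3G01480), a cyclophilin among the lower calls. Of 59 WRKY genes 4 were called higher (6.78%) and 10 lower (16.9%), near the 8.71% and 12.8% of all genes (1 and 6 with quality weights). Of 55 late embryogenesis abundant genes 2 were called higher (3.64%) and 14 lower (25.5%), with 0 and 4 in the fit with quality weights. Reads on 63 tested genes of the plastid genome gave 12 higher and 4 lower calls, none of which was made without each of the 10 libraries in turn. They made up 0.0169% and 0.0305% of counts in dal-2 and 0.0194% and 0.0167% in DIF-OX2 on Dex. Of 17 tested genes of the mitochondrial genome 3 were called higher (17.6%) and none lower, and none passed with quality weights. For the plastid genome the shares were 19.0% higher and 6.35% lower, and over all genes 8.71% and 12.8%.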
